A study of Mus musculus with 26 samples.

Results

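Sarcomere assembly needs helper proteins that fold myosin, set the length of actin filaments and protect the newly made proteins, and 10 genes of this kind were followed here by name: the kelch proteins Klhl41 and Klhl40, the leiomodins Lmod2 and Lmod3, the nebulin-related anchoring protein Nrap, the myosin chaperones Unc45b and Unc45a, and the small heat shock proteins Cryab, Hspb2 and Hspb7. They were chosen by function, but with earlier results of these data known, and make up 10 of the 55341 genes listed in the count files. Shares of all genes set beside their counts are therefore a description and not a test of the set. All 10 were found under their symbols and all 10 passed the filter on low counts in both experiments.

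RNA sequencing of C2C12, a mouse myoblast line that stops dividing and forms myotubes when serum is withdrawn, gave 26 libraries in 10 groups. In the first experiment (18 libraries, 3 in each group), C2C12 cells received a control siRNA (siCtrl) or either of 2 siRNAs against the methyltransferase SMYD3 (siSMYD3#1 and siSMYD3#2) and were collected at confluence (0 h) or after 24 h in differentiation medium; each group held 1 library from TRIzol RNA and 2 from NucleoSpin columns. By the study's methods the siRNA was given to proliferating cells and again 24 h later, when differentiation was induced. Time since the first transfection therefore goes with time in differentiation medium. In the second experiment (8 libraries, 2 in each group, all TRIzol), C2C12 cells stably carrying the empty retroviral vector pREV were set against cells stably expressing HA-Flag-tagged SMYD3 from the same vector, at the same times. The SMYD3 cells were a single clone, CL5, and by the study's methods the vector cells were sub-cloned too. In these 8 libraries, what belongs to SMYD3 and what belongs to either line therefore cannot be told apart. Outside them the study also assayed another clone, CL3, and used siSMYD3 in overexpressing cells to exclude clonal effects. None of these 8 libraries is labelled with an siRNA. The question was how the level of SMYD3 bears on the first day of myogenic differentiation.

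Klhl41 and Klhl40 are kelch-repeat proteins of striated muscle; Klhl40 is known to keep Lmod3 from being degraded. Leiomodins bind actin and start or lengthen thin filaments, and Nrap scaffolds the first myofibrils at their ends. Unc45b folds the myosin head together with Hsp90 in striated muscle, while its paralogue Unc45a does the same for the myosins of all cells. Cryab, Hspb2 and Hspb7 are small heat shock proteins that bind unfolding proteins; Cryab is abundant in muscle, lens and other tissues. Mutations of KLHL40, KLHL41 and LMOD3 are known causes of nemaline myopathy in humans.

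Assigned reads numbered 14315193 to 60398170 in the siRNA libraries and 21124675 to 67853386 in the vector and CL5 libraries. Levels are given as CPM, the counts of a gene per 1000000 assigned reads, after TMM scaling within each experiment, and levels of different genes are compared only as CPM per kilobase of exon. A change was called when the adjusted p of the edgeR quasi-likelihood test, Benjamini-Hochberg adjusted over all genes tested in the experiment, lay under 0.01. The myoblast genes Myod1, Myf5, Des and Cdh15 were read in all 26 libraries, but the TRIzol library of each siRNA group stood apart. The muscle intermediate filament Des was at 67.3 to 140 CPM in the 6 TRIzol libraries and 842 to 1506 CPM in the 12 NucleoSpin libraries (log2 difference -3.52, SE 0.0875, adjusted p = 9.82e-16). Of 5 myoblast and myocyte genes, 4 were lowered in TRIzol libraries, a comparison in which 51.3% of all genes were called. Extraction goes with the passage of the cells in the siRNA libraries, so extraction and passage cannot be told apart. Of 15 markers of other cell types, 10 stayed below 1 CPM in every library, with the epithelial marker Epcam and the osteoblast marker Ibsp at 0. Of the other 5, the epithelial keratin Krt8 (at most 7.05 CPM) rose over 24 h in all 3 siRNA conditions (log2 1.94, 1.76 and 1.92, adjusted p = 0.00313, 0.00607 and 0.00371). The cardiac troponin Tnni3 (at most 3.71 CPM) rose in siCtrl cells (2.09, adjusted p = 0.0014). In CL5 against vector cells the log2 differences at 0 h and 24 h were 2.59 and 2.64 for Krt8 (adjusted p = 0.367 and 0.465). They were 3.64 and 2.89 for Tnni3 (adjusted p = 0.0387 and 0.0769), and none of them was called. The summed level of these 15 markers ranged from 6.70 to 12 CPM in the siRNA libraries, from 15.7 to 20.6 in the vector libraries and from 30.8 to 50.9 in the CL5 libraries, in the latter 2 sets mainly through the adipocyte-associated factor Cebpa (at most 37.4 CPM), while the adipocyte markers Adipoq and Plin1 did not exceed 0.0732 and 0.126 CPM. The part of these markers in the rise over 24 h and in the CL5 values was not tested. In bulk RNA, fewer cells of a kind and less RNA in each cell cannot be told apart.

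The targeted gene Smyd3 was lower in siSMYD3#2 cells in all 3 libraries at 24 h (9.65, 5.46 and 5.37 CPM, against 20.7, 17.8 and 19.9 in siCtrl), a called change (log2 fold change -1.51, SE 0.171, adjusted p = 5.06e-05). In the libraries labelled siSMYD3#1 it was read at 19.3, 15.2 and 15.1 CPM, which overlaps siCtrl and was not called (log2 fold change -0.24, SE 0.160, adjusted p = 0.414). Within these libraries, directions given for siSMYD3#1 therefore rest on the labels and not on a fall in Smyd3 reads. The study assayed the knockdown separately, by qPCR of Smyd3 and western blot of the protein, and those assays are not part of these data. In the CL5 libraries Smyd3 stood at 24.3 and 21 CPM at 24 h against 17.1 and 18.2 in vector cells (adjusted p = 0.671); reads from a tagged cDNA need not all count towards the mouse gene, and the origin of the cDNA is not given in the sources used here.

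RefSeq promoter windows on GRCm38.p6 were at hand for 7 of the 10 genes, and 5 are printed because they set the genes that rose most against the paralogue that did not: the 250 bases before the RefSeq start of Klhl41, Klhl40, Lmod2, Unc45b and Unc45a, read 5′ to 3′ on the strand of the gene. Capitals mark matches to the E-box letters CANNTG, the kind of site that MyoD and myogenin bind; the letters read the same on both strands. The RefSeq starts of Lmod2, Unc45b and Unc45a lie inside the span that GENCODE gives these genes. The windows of Unc45b and Unc45a lie wholly within that span, and the window of Lmod2 reaches into it with its last bases.
Klhl41 (chr2:69669870-69670119, plus strand): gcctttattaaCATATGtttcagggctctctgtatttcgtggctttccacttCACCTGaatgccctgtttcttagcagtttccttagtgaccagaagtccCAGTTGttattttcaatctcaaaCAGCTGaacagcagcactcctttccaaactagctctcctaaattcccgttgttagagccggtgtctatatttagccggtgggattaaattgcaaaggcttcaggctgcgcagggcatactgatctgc
Klhl40 (chr9:121777357-121777606, plus strand): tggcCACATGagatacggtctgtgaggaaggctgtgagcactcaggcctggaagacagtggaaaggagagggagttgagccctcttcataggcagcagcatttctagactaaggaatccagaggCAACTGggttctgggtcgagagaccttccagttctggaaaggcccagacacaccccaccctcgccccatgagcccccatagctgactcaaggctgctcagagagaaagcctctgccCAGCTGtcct
Lmod2 (chr6:24597521-24597770, plus strand): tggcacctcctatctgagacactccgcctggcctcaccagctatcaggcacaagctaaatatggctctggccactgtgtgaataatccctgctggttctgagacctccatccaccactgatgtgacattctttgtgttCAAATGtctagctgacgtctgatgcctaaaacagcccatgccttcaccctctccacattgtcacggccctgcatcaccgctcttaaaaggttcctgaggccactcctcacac
Unc45b (chr11:82911003-82911252, plus strand): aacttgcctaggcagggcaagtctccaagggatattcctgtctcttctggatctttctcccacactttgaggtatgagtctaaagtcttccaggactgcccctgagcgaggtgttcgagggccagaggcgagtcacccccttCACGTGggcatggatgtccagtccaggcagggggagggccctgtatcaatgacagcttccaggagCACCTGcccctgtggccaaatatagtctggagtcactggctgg
Unc45a (chr7:80340220-80340469, minus strand): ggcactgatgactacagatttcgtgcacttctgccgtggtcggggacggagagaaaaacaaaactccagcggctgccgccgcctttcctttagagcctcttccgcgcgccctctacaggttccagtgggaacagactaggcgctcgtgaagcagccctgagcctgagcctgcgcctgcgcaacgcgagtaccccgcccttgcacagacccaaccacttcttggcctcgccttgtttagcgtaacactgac
The window of Klhl41 held 4 E-box matches, that of Klhl40 held 3, that of Unc45b 2 and that of Lmod2 1, while that of Unc45a held 0. Nrap had 3 and Hspb7 had 1. The RefSeq start of Nrap lies just outside the span that GENCODE gives it. The run of bases from that start was found in no GENCODE transcript of the gene. No window was at hand for Lmod3, Cryab and Hspb2. Such matches are common: 66.2% of the 32851 windows of this length held at least 1. The E-box CAGCTG, which 13.0% of all windows held, was present before Klhl41, Klhl40 and Nrap. A MEF2 site, held by 2.92% of windows, was found before Klhl41 alone among the 7, 63 bases before the start. The letters CCCTCC or GAGGGG, held by 43.6% of windows, occurred before Unc45b, and neither a CArG box (1.47% of windows) nor the heat shock element letters GAANNTTC (6.69% of windows) occurred before any of the 7. All motifs were searched on both strands, a CAGCTG match is also a CANNTG match, and a match is only a run of letters.

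In siCtrl cells, 8 of the 10 genes rose during the first 24 h of differentiation and 0 fell, where 29.4% of all 15820 genes tested were called and 14.6% were raised. The median log2 fold change of the 10 was 3.49, against 0.03 over all genes tested. In 9 of the 10 the 3 libraries at 24 h lay above all 3 at 0 h, against 17.0% of all genes. Unc45b, Lmod2, Lmod3, Klhl40 and Klhl41 changed by the largest factors, Hspb2, Nrap and Cryab by smaller ones, and Unc45a and Hspb7 did not pass the test.

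Klhl41 (chr2:69670120-69684230, plus strand, 6 exon blocks) was read at 0.847 CPM in the TRIzol library and 1.17 and 1.22 in the NucleoSpin libraries of siCtrl cells at 0 h, and at 21.7, 45.0 and 55.1 CPM at 24 h. All 3 late libraries were far above all 3 early ones, with a fitted log2 fold change of 5.18 (SE 0.303, adjusted p = 1.61e-09). At 24 h the libraries labelled siSMYD3#1 gave 3.28, 5.69 and 5.66 CPM and those of siSMYD3#2 gave 10.9, 8.25 and 7.67 CPM. None of these 6 libraries reached the lowest siCtrl library at 24 h. Relative to siCtrl, the mean level left was 12% with siSMYD3#1 (log2 fold change -3.04, SE 0.265, adjusted p = 1.65e-06) and 22.1% with siSMYD3#2 (log2 fold change -2.07, SE 0.254, adjusted p = 0.000119). Both calls held when any of the 6 libraries compared was left out.

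Klhl40 (chr9:121777607-121783818, plus strand) rose from 0.110, 0.146 and 0.154 CPM to 6.12, 8.15 and 10.4 CPM in siCtrl cells, a log2 fold change of 5.85 (SE 0.520, adjusted p = 1.81e-07). It shares 540 exon bases with Gm47108 on the opposite strand, and the strand setting of the counting is not given in the sources used here. At 24 h it stood at 2.30, 7.0 and 5.80 CPM in siSMYD3#1 libraries, overlapping siCtrl, and at 3.53, 1.88 and 1.90 CPM in siSMYD3#2 libraries, below siCtrl. Neither difference passed the test: -0.76 (SE 0.364, adjusted p = 0.212) for siSMYD3#1 and -1.62 (SE 0.386, adjusted p = 0.0134) for siSMYD3#2 on the log2 scale. Within the NucleoSpin libraries the siSMYD3#2 difference was -2.29 with an adjusted p of 0.000113. As a share of the Klhl40 and Klhl41 pair in CPM per kilobase, Klhl40 made up 17.9% ± 3.69 (SD, n = 3) in siCtrl cells at 24 h, 49.3% ± 7.11 with siSMYD3#1 and 21.1% ± 3.08 with siSMYD3#2; the siSMYD3#1 range of 41.5% to 55.4% lay above the siCtrl range of 15.5% to 22.2%.

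**Figure D1:**
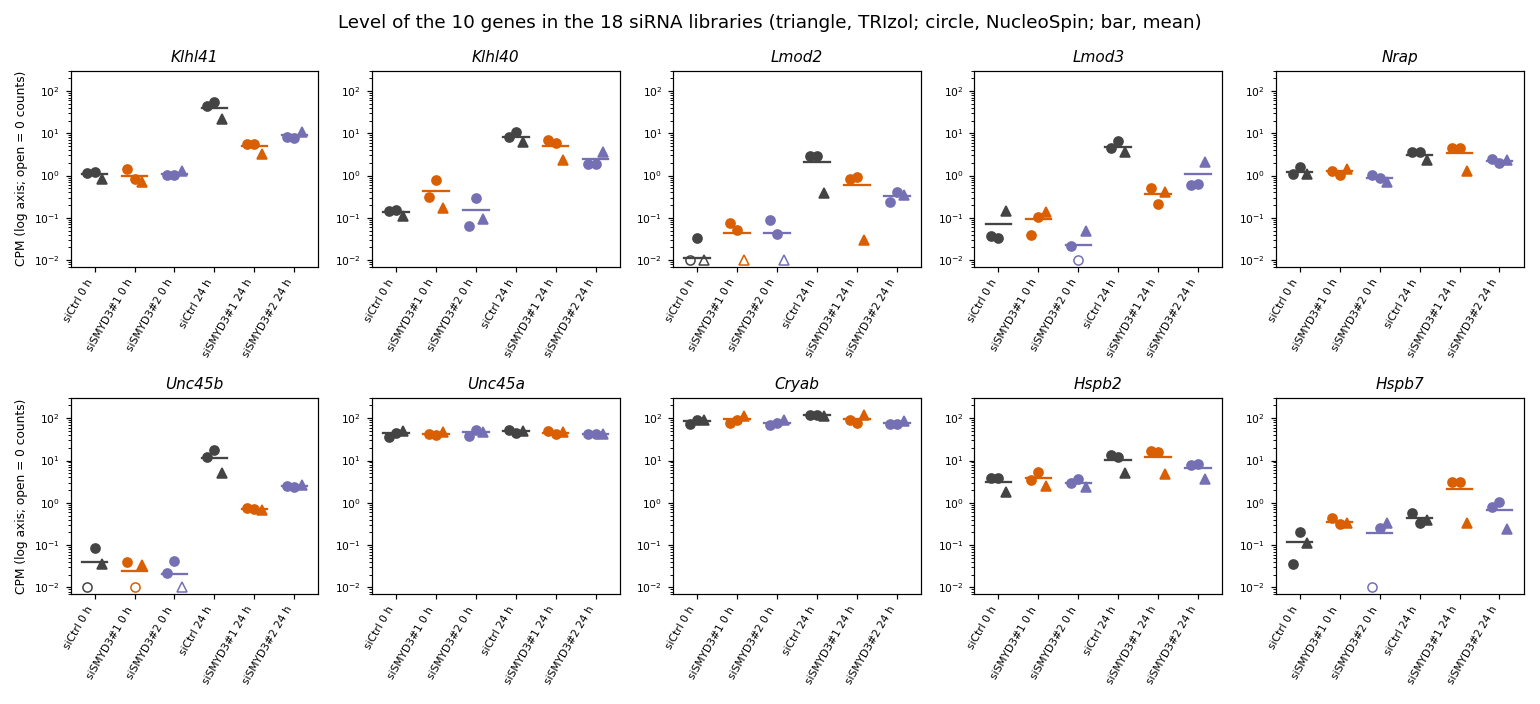
Level of each of the 10 genes in the 18 siRNA libraries, in CPM on a log axis, by siRNA and time; each symbol is 1 library (triangle TRIzol, circle NucleoSpin), the bar is the mean of 3 and open symbols at the foot of the axis are libraries with 0 counts. Klhl41 stood at 21.7 to 55.1 CPM in siCtrl cells at 24 h and at 3.28 to 10.9 CPM with either SMYD3 siRNA, whereas Unc45a stayed between 36.4 and 54.0 CPM throughout.

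Lmod3 (chr6:97238534-97252759, minus strand), the leiomodin of skeletal muscle, was near the floor of detection at 0 h, with 4, 1 and 2 reads in the siCtrl libraries (0.147, 0.0366 and 0.0343 CPM). At 24 h it stood at 3.55, 4.51 and 6.4 CPM, a log2 fold change of 6.17 (SE 0.548, adjusted p = 1.16e-07). With siSMYD3#1 it reached 0.398, 0.508 and 0.212 CPM, and with siSMYD3#2 it reached 2.08, 0.606 and 0.635 CPM. All 6 of these libraries lay below all 3 siCtrl libraries. The mean left was 7.73% with siSMYD3#1 (log2 fold change -3.67, SE 0.453, adjusted p = 3.12e-05) and 22.9% with siSMYD3#2 (log2 fold change -2.20, SE 0.412, adjusted p = 0.00237). The second call was lost when either NucleoSpin library of siCtrl or of siSMYD3#2 at 24 h was left out (adjusted p = 0.0112 to 0.0282).

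Lmod2 (chr6:24597762-24605414, plus strand), the leiomodin best known from heart, was read 0, 0 and 2 times in siCtrl cells at 0 h and 11, 65 and 45 times at 24 h, or 0.387 CPM in the TRIzol library and 2.85 and 2.94 CPM in the NucleoSpin libraries. Pooled over the 3 libraries of each time, the ratio was 103-fold with a 95% exact counting interval of 27.8 to 857, and the change was called (log2 fold change 6.60, SE 0.784, adjusted p = 2.78e-06). At 24 h Lmod2 gave 0.0307, 0.834 and 0.920 CPM with siSMYD3#1 and 0.353, 0.243 and 0.404 CPM with siSMYD3#2. The siCtrl TRIzol library lay inside the range of the SMYD3 siRNA libraries, and neither difference was called: -1.86 (SE 0.510, adjusted p = 0.0225) and -2.16 (SE 0.566, adjusted p = 0.022). Lmod2 was the gene of the 10 that moved most with the RNA extraction, -2.31 on the log2 scale in TRIzol against NucleoSpin libraries (SE 0.505, adjusted p = 0.00062), a comparison in which 51.3% of all genes were called and in which extraction goes with the passage of the cells. Leaving out the siCtrl TRIzol library at 24 h ended that call (adjusted p = 0.0184). Within the NucleoSpin libraries the differences from siCtrl were -1.73 (adjusted p = 0.00353) with siSMYD3#1 and -3.14 (adjusted p = 0.000162) with siSMYD3#2.

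Nrap (chr19:56320035-56390037, minus strand, 42 exon blocks) was already read at 0 h, at 1.10, 1.06 and 1.56 CPM, and stood at 2.32, 3.55 and 3.53 CPM at 24 h in siCtrl cells (log2 fold change 1.30, SE 0.319, adjusted p = 0.00302). That call was lost without either NucleoSpin library at 24 h or the first NucleoSpin library at 0 h (adjusted p = 0.0102 to 0.0192). Its exons overlap Habp2 by 268 bases and Gm17197 by 108, both on the opposite strand. At 24 h the siSMYD3#1 libraries gave 1.29, 4.42 and 4.53 CPM and the siSMYD3#2 libraries 2.39, 2.43 and 1.96 CPM. Neither group differed from siCtrl beyond the spread (log2 fold change 0.05, SE 0.309, adjusted p = 0.948, and -0.42, SE 0.317, adjusted p = 0.487). Nrap also rose over 24 h with both SMYD3 siRNAs, by log2 1.31 (SE 0.328, adjusted p = 0.00428) and 1.39 (SE 0.345, adjusted p = 0.00493), although 4 and 5 of the 6 libraries, left out in turn, ended those calls.

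Unc45b (chr11:82910550-82943403, plus strand, 21 exon blocks) showed the largest fitted change of the 10 genes over differentiation. In siCtrl cells it was read 1, 0 and 5 times at 0 h and 147, 281 and 271 times at 24 h, or 5.17, 12.3 and 17.7 CPM (log2 fold change 7.67, SE 0.482, adjusted p = 1.61e-09). It shares 255 exon bases with Unc45bos and 151 with Slfn5os, both on the opposite strand. At 24 h the libraries labelled siSMYD3#1 gave 0.674, 0.761 and 0.708 CPM, and those of siSMYD3#2 gave 2.59, 2.49 and 2.31 CPM. The 3 groups did not overlap, and siCtrl was the most spread of them. Unc45b was left at 6.09% of siCtrl with siSMYD3#1 (log2 fold change -3.90, SE 0.357, adjusted p = 1.6e-06) and at 21% with siSMYD3#2 (log2 fold change -2.11, SE 0.318, adjusted p = 0.000431).

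Unc45a (chr7:80325292-80341005, minus strand, 18 exon blocks) ranged from 36.4 to 54.0 CPM over all 18 siRNA libraries. It changed by 0.17 on the log2 scale over differentiation of siCtrl cells (SE 0.121, adjusted p = 0.272), by -0.09 with siSMYD3#1 (SE 0.121, adjusted p = 0.714) and by -0.20 with siSMYD3#2 (SE 0.122, adjusted p = 0.376). The make-up of the pair therefore followed Unc45b: per kilobase, Unc45b was 0.0993% of the pair in siCtrl cells at 0 h and 20.7% ± 10.2 (SD, n = 3) at 24 h, with values from 10.7% in the TRIzol library to 31.1%. With siSMYD3#1 it was 1.73% ± 0.121 at 24 h and with siSMYD3#2 it was 6.08% ± 0.256.

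**Figure D2:**
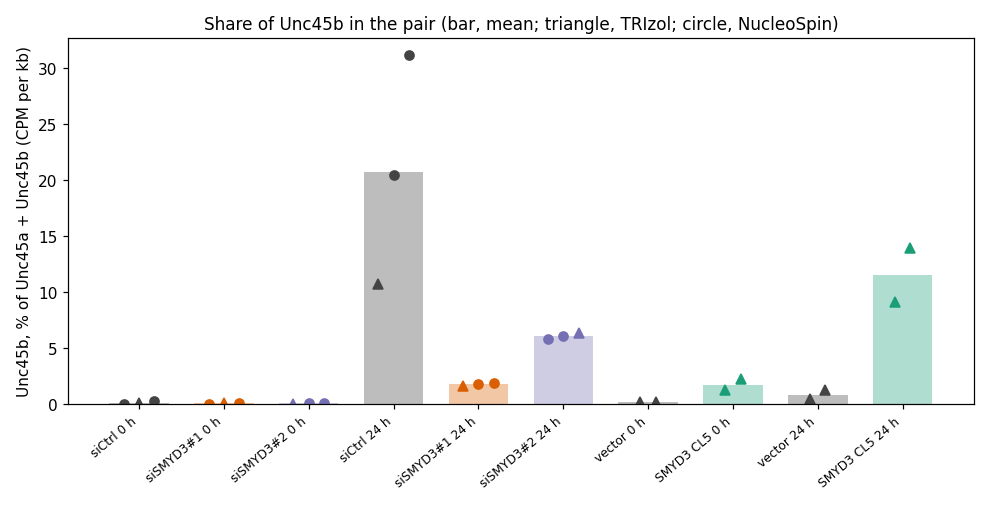
Share of the muscle chaperone Unc45b in the sum of Unc45a and Unc45b, in percent of CPM per kilobase of exon; bars are group means over 3 siRNA or 2 vector or CL5 libraries and symbols are libraries. The siCtrl libraries at 24 h lie between 10.7% and 31.1%, the siSMYD3#1 libraries between 1.6% and 1.85%, and the CL5 libraries at 24 h between 9.13% and 13.9%.

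Cryab (chr9:50751325-50756636, plus strand) was the most abundant of the 10 genes per kilobase in all 10 groups. In siCtrl cells it was read at 90.04, 74.4 and 89.7 CPM at 0 h and at 116, 116 and 122 CPM at 24 h, a rise of 0.48 on the log2 scale (SE 0.108, adjusted p = 0.00157) that was lost without the TRIzol or first NucleoSpin library at 0 h or the second NucleoSpin library at 24 h (adjusted p = 0.0125 to 0.0161). At 24 h siSMYD3#2 cells gave 86.1, 72.3 and 74.9 CPM, below all siCtrl libraries, and the level fell to 66.0% of siCtrl (log2 fold change -0.61, SE 0.109, adjusted p = 0.00177). Leaving out any NucleoSpin library of the comparison ended this call (adjusted p = 0.0106 to 0.0146). With siSMYD3#1 the TRIzol library stood at 118 CPM and the NucleoSpin libraries at 91.7 and 78.7 CPM, a difference of -0.31 that was not called (SE 0.109, adjusted p = 0.0795; -0.47 with adjusted p = 0.00568 within NucleoSpin libraries).

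Hspb2 (chr9:50751078-50752354, minus strand) lies head to head with Cryab, and 252 exon bases of the genes overlap, so that reads from that stretch cannot be told apart without strand. Hspb2 was far lower, at 1.84, 3.81 and 3.77 CPM in siCtrl cells at 0 h and 5.10, 13.5 and 12.1 CPM at 24 h (log2 fold change 1.67, SE 0.210, adjusted p = 4.8e-06). The TRIzol library was the lowest of the 3 at each time, and the extraction term was -1.13 for Hspb2 (SE 0.137, adjusted p = 1.1e-06) and 0.25 for Cryab (SE 0.066, adjusted p = 0.00287). At 24 h Hspb2 stood at 4.75, 16.5 and 15.6 CPM with siSMYD3#1 and at 3.69, 7.76 and 8.42 CPM with siSMYD3#2. The differences from siCtrl were 0.21 (SE 0.197, adjusted p = 0.589) and -0.61 (SE 0.204, adjusted p = 0.0734). Per kilobase, Hspb2 made up 6.25% ± 2.48 (SD, n = 3) of the Cryab and Hspb2 pair at 0 h and 13.1% ± 5.19 at 24 h in siCtrl cells.

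Hspb7 (chr4:141420779-141425311, plus strand), a small heat shock protein of heart and skeletal muscle, was read at 0.110, 0.0366 and 0.206 CPM in siCtrl cells at 0 h and at 0.387, 0.570 and 0.327 CPM at 24 h, or 5 to 13 reads a library, and was not called (log2 fold change 1.79, SE 0.904, adjusted p = 0.125). With siSMYD3#1 it stood at 0.337 CPM in the TRIzol library and 3.08 and 3.04 CPM in the NucleoSpin libraries at 24 h. The TRIzol library thus lay with siCtrl and the NucleoSpin libraries above every siCtrl library. Over all libraries the difference was 2.04 (SE 0.724, adjusted p = 0.0852), and within NucleoSpin libraries it was 2.71 with an adjusted p of 0.00321. Hspb7 was the only one of the 10 genes above siCtrl by more than 1 on the log2 scale with either siRNA at 24 h.

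Counted over the 10 genes, siSMYD3#1 lowered 3 at 24 h (Klhl41, Lmod3 and Unc45b), where 5.85% of all genes were called and 2.94% were lowered, and raised 0, where 2.91% were raised. siSMYD3#2 lowered 4 (the same 3 and Cryab), where 3.70% were called and 2.04% lowered, and raised 0, where 1.66% were raised. Both comparisons use the same siCtrl libraries. With siSMYD3#2, 2 of the 10 were called without any of the 4 NucleoSpin libraries compared and 6 without its own TRIzol library. No share of all genes was taken for those fits. Before differentiation, at 0 h, edgeR called 0 of the 10 genes with either siRNA, where it called 1.43% and 0.531% of all genes. DESeq2 called 0 of the 7 members to which it gave an adjusted p, where it called 4.31% and 1.73% of all such genes. An unadjusted p under 0.05 was reached by 1 of 10 with siSMYD3#1 and 0 of 10 with siSMYD3#2, against 13.9% and 10.1% of all genes. Since Klhl40, Lmod2, Lmod3, Unc45b and Hspb7 were read at most 15 times in a library at 0 h, a fall in them at that time was not detectable at this depth. Cells at 0 h had also had less time since the first transfection than cells at 24 h.

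**Figure D3:**
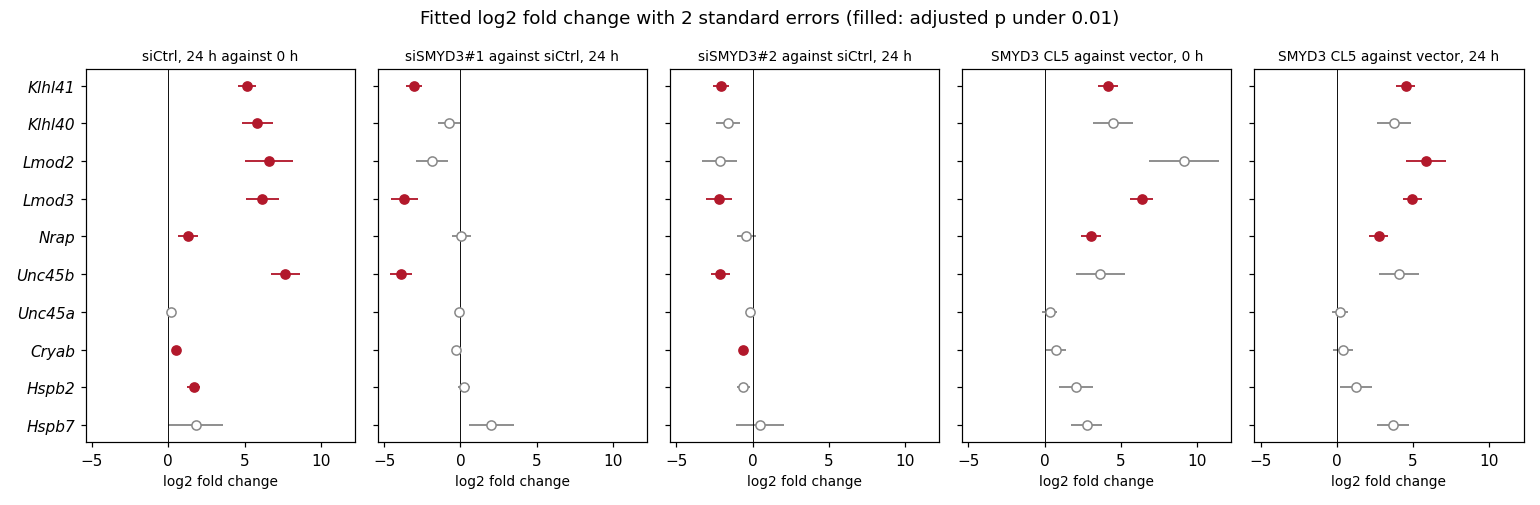
Fitted log2 fold change of each of the 10 genes in 5 comparisons; points are estimates, lines are 2 standard errors on each side, and filled points passed an adjusted p of 0.01. Klhl41 and Lmod3 are filled in all 5 panels, upwards over differentiation and in CL5 cells and downwards with either siRNA, and Unc45a lies near 0 in all 5.

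Over 24 h of differentiation, 6 of the 10 genes still rose in cells labelled siSMYD3#1 (25.4% of all genes called and 12.7% raised) and 7 rose with siSMYD3#2 (19.0% called and 9.11% raised). Klhl41 rose by log2 2.27 (SE 0.325, adjusted p = 4.64e-05) and 3.12 (SE 0.309, adjusted p = 2.41e-06), and Unc45b by 4.53 (SE 0.729, adjusted p = 0.000107) and 6.64 (SE 0.615, adjusted p = 7.73e-07), against 5.18 and 7.67 in siCtrl cells. Klhl40 rose by 3.61 (adjusted p = 2.06e-05) and 4.27 (adjusted p = 4.29e-05). Lmod3 rose with siSMYD3#2 (5.29, adjusted p = 4.54e-05), and with siSMYD3#1 its change was 2.04 (adjusted p = 0.0248). The rise of Lmod2 with siSMYD3#2 sat at the threshold (3.04, adjusted p = 0.00999) and was not called with the replicate number as a block (adjusted p = 0.0141). It was also lost with other size factors, no covariate, NucleoSpin libraries only and all 26 libraries in 1 fit (adjusted p = 0.0102 to 0.188). Leaving out 5 of the 6 libraries, each in turn, ended it (adjusted p = 0.0141 to 0.0452). For the Lmod2 call with siSMYD3#1, 4 of the 6 did so (adjusted p = 0.0143 to 0.0212).

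The difference between the change over 24 h with an siRNA and that in siCtrl was tested directly. Longer exposure to the siRNA and time in differentiation medium cannot be told apart in this difference. It was called for Klhl41 with siSMYD3#1 (-2.91 on the log2 scale, SE 0.455, adjusted p = 0.00399), where 0.215% of all genes were called, and not for the other 9 genes. With siSMYD3#2 edgeR called 0 of the 10, where 0.0190% of all genes were called. DESeq2 called 1 of the 8 it gave an adjusted p (0.850% of all such genes), and 3 of 10 had an unadjusted p under 0.05 (10% of all genes); Klhl41 was at -2.06 (SE 0.435, adjusted p = 0.0573). Leaving out 9 of the 12 libraries behind the siSMYD3#1 value, each in turn, ended its call (adjusted p = 0.0104 to 0.0342). Directly compared at 24 h, the siRNAs differed in Unc45b, lower with siSMYD3#1 by 1.79 on the log2 scale (log2 fold change -1.79, SE 0.367, adjusted p = 0.00516), where 3.36% of all genes were called; this call was lost without any of the 6 libraries but the siSMYD3#1 TRIzol library (adjusted p = 0.0114 to 0.0443). Klhl41 was at -0.97 (SE 0.266, adjusted p = 0.0317) and Lmod3 at -1.47 (SE 0.487, adjusted p = 0.0693) in the same comparison.

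In CL5 cells at 24 h 4 of the 10 genes were higher than in vector cells and 0 were lower, where 0.964% of all 17835 genes tested were called and 0.376% were raised. In 8 of the 10 both CL5 libraries lay above both vector libraries, against 24.8% of all genes. The median log2 fold change of the 10 was 3.72, against 0.02 over all genes. Klhl41 stood at 43.0 and 51.0 CPM in CL5 and 1.80 and 2.33 CPM in vector libraries, 22.8 times the vector mean (log2 fold change 4.50, SE 0.321, adjusted p = 0.00103). Lmod3 stood at 15.9 and 20.0 CPM against 0.488 and 0.660 CPM (log2 fold change 4.95, SE 0.321, adjusted p = 0.00084). Lmod2 stood at 9.52 and 8.15 CPM against 0.155 and 0.153 CPM (log2 fold change 5.81, SE 0.656, adjusted p = 0.00856), and Nrap at 14.6 and 13.2 CPM against 1.95 and 2.21 CPM (log2 fold change 2.74, SE 0.324, adjusted p = 0.00591). Every one of these 4 calls was lost when any of the 4 libraries compared was left out, with adjusted p = 0.0101 to 0.102. Without either vector library of 0 h 2 were called (Klhl41 and Lmod3), and 7 of the 10 genes were called when either CL5 library of 0 h was left out. No share of all genes was taken for these fits, so the counts do not tell a shift of the members from one of all genes.

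The remaining genes of the CL5 comparison at 24 h fell into genes that were far higher without passing the test and genes that hardly differed. Klhl40 stood at 19.5 and 40.2 CPM in CL5 against 1.77 and 2.59 CPM (log2 fold change 3.76, SE 0.563, adjusted p = 0.015). Unc45b stood at 6.82 and 5.71 CPM against 0.177 and 0.552 CPM (log2 fold change 4.06, SE 0.663, adjusted p = 0.0212), and Hspb7 at 5.43 and 4.84 CPM against 0.421 and 0.383 CPM (log2 fold change 3.67, SE 0.529, adjusted p = 0.013). DESeq2 called 7 of the 10 in this comparison, where it called 5.03% of all genes. Hspb2 (log2 fold change 1.26, adjusted p = 0.355), Cryab (0.37, adjusted p = 0.734) and Unc45a (0.18, adjusted p = 0.87) lay closer to the vector libraries, and in Cryab and Unc45a the groups overlapped.

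**Figure D4:**
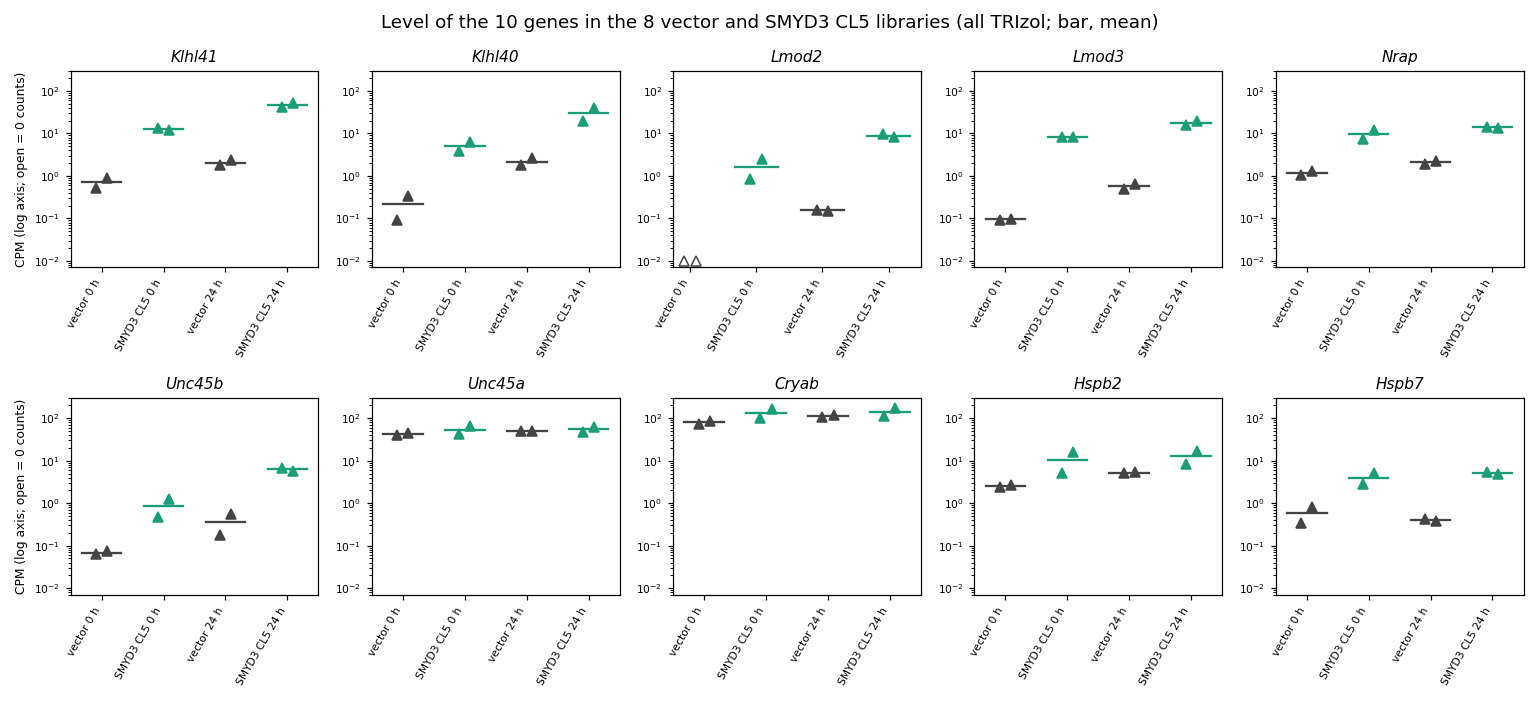
Level of each of the 10 genes in the 8 vector and SMYD3 CL5 libraries, in CPM on a log axis, at 0 h and 24 h; each triangle is 1 TRIzol library, the bar is the mean of 2 and open symbols are libraries with 0 counts. Klhl41 in CL5 libraries at 0 h (12.4 and 13.2 CPM) already lies above vector libraries at 24 h (1.80 and 2.33 CPM).

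At 0 h, before differentiation medium was added, Klhl41, Lmod3 and Nrap were already higher in CL5 cells, 3 of the 10 genes where 1.07% of all genes were called and 0.465% raised. Klhl41 stood at 13.2 and 12.4 CPM against 0.534 and 0.900 CPM (log2 fold change 4.14, SE 0.330, adjusted p = 0.00171). Lmod3 stood at 8.08 and 8.14 CPM against 0.0942 and 0.0973 CPM (log2 fold change 6.36, SE 0.382, adjusted p = 0.000653), and Nrap at 7.44 and 11.9 CPM against 1.07 and 1.29 CPM (log2 fold change 3.03, SE 0.335, adjusted p = 0.00493). These 3 calls were lost without either vector library of 0 h (adjusted p = 0.0164 to 0.0708), and that of Nrap also without any 24 h library. Without the first CL5 library of 0 h 8 of the 10 genes were called and without the second 5 were. For these fits, too, no share of all genes was taken. Lmod2 had 0 reads in both vector libraries and 33 and 96 in the CL5 libraries, a difference of at least 19.7-fold with 3 counts a library taken as the floor (adjusted p = 0.0118). The median log2 fold change of the 10 genes was 3.33. The fitted value and the bound of Lmod2 both lie above it, so the choice between them cannot move it. The second CL5 library exceeded the first in Klhl40 (6.4 against 3.81 CPM), Unc45b (1.28 against 0.479 CPM) and Hspb2 (15.7 against 5.22 CPM).

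Over the 24 h, edgeR called 0 of the 10 genes within vector cells and 0 within CL5 cells, where 0% of all genes were called in either comparison; 6 and 5 of the 10 had an unadjusted p under 0.05, against 7.04% and 6.38% of all genes. DESeq2 called 3 and 4 of the 10, against 0.755% and 0.663%. The fitted changes of Klhl41 were 1.51 (SE 0.314, adjusted p = 0.365) in vector and 1.87 (SE 0.285, adjusted p = 0.264) in CL5 cells. The vector cells reached lower levels than siCtrl cells did in their own scaling at 24 h, 2.06 ± 0.379 CPM (SD, n = 2) for Klhl41 against 40.6 ± 17.1 CPM (SD, n = 3), values from separately scaled experiments between which no test was made. The difference of the CL5 and vector changes over 24 h was called for 0 of the 10 genes by edgeR and by DESeq2, which called 0.0112% of all genes. In that comparison 1 member had an unadjusted p under 0.05, against 1.75% of all genes.

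Myogenin (Myog), the transcription factor that opens terminal differentiation, rose in siCtrl cells from 0.184, 1.10 and 1.87 CPM at 0 h to 55.6, 222 and 262 CPM at 24 h (log2 fold change 7.25, SE 0.383, adjusted p = 8.45e-09). At 24 h it was at 5.64, 19.8 and 17.2 CPM with siSMYD3#1 (log2 fold change -3.59, SE 0.301, adjusted p = 5.4e-06) and at 31.1, 48.6 and 45.2 CPM with siSMYD3#2 (log2 fold change -1.81, SE 0.281, adjusted p = 0.00125), below every siCtrl library with either siRNA. At 0 h Myog stood at 15.9 and 81.9 CPM in CL5 and 0.283 and 0.535 CPM in vector cells, a called difference (log2 fold change 6.86, SE 0.888, adjusted p = 0.00885). At 24 h it stood at 123 and 78.8 CPM in CL5 against 7.27 and 7.03 CPM in vector cells, and this difference was not called (log2 fold change 3.82, SE 0.731, adjusted p = 0.0376). The part of Myog in the levels of the 10 genes was not tested.

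Across the 18 siRNA libraries, log2 CPM of Klhl41, Klhl40, Lmod2, Lmod3 and Unc45b correlated with one another at Pearson r from 0.808 to 0.984. These were the genes that rose most in siCtrl cells of the same libraries. Nrap correlated with them at 0.716 to 0.888, Hspb2 at 0.564 to 0.864 and Hspb7 at 0.304 to 0.655. Cryab correlated with the other 9 genes at 0.086 to 0.605 and Unc45a at 0.115 to 0.512. Across the 8 vector and CL5 libraries the ranges were 0.668 to 0.965 for Cryab and 0.578 to 0.965 for Unc45a. None of these r values carries a test, and the 18 siRNA libraries share 6 groups and 2 extractions. Over the same 18 libraries the gene most like Klhl41 was Mybph (r = 0.984), that most like Unc45b was the fast myosin light chain Mylpf (0.987), that most like Lmod3 was the calcium-binding protein Hrc (0.98) and that most like Lmod2 was the slow troponin I Tnni1 (0.953). The genes most like Klhl40, Nrap, Cryab, Hspb2, Hspb7 and Unc45a were Mtss1l (0.973), Smim14 (0.947), Gadd45g (0.931), 1700003F12Rik (0.972), Hs6st1 (0.919) and Scaf1 (0.867).

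Per kilobase, the order in siCtrl cells at 0 h ran from Cryab (57.3 CPM per kb) over Unc45a (8.61) and Hspb2 (3.76) to Klhl41 (0.426), with the other 6 below. At 24 h it ran Cryab (79.7 ± 2.33, SD, n = 3), Klhl41 (16.0 ± 6.75), Hspb2 (12.3 ± 5.41) and Unc45a (9.68 ± 0.987), followed by Klhl40 (3.29 ± 0.866), Unc45b (2.61 ± 1.40) and Lmod3 (2.18 ± 0.654); Klhl41, Hspb2 and Unc45a did not differ beyond their spread, nor did Klhl40, Unc45b and Lmod3. In CL5 cells at 24 h Klhl41 (18.6 ± 2.24, SD, n = 2) stood between Cryab (97.3 ± 31.4) and Hspb2 (15.2 ± 7.07), while in vector cells Klhl40 (0.873 ± 0.232) and Klhl41 (0.816 ± 0.150) were close to each other and below Hspb2 (6.31 ± 0.313).

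Partners of the 10 genes were followed in 5 lists. Over 24 h in siCtrl cells, 29.4% of all genes were called and 14.6% were raised. At 24 h 5.85% of all genes were called with siSMYD3#1 and 3.70% with siSMYD3#2. In CL5 against vector cells 1.07% were called at 0 h and 0.964% at 24 h. Set beside the counts of the lists, these shares are a description and not a test. Of 6 myosin folding partners, 4 fell and 1 rose in siCtrl cells over 24 h: the chaperones Hsp90aa1 (log2 fold change -1.02, adjusted p = 3.31e-07), Hspa8 (-0.64, adjusted p = 0.000122) and Hsp90ab1 (-0.32, adjusted p = 0.00998) and the co-chaperone Stip1 (-0.62, adjusted p = 0.000148) were lowered, and the muscle methyltransferase Smyd1, a known partner of Unc45b and Hsp90, was raised (2.67, adjusted p = 0.00322). The median of the list was -0.47. Neither siRNA changed a gene of this list at 24 h by the test. The mean of Smyd1 at 24 h was nonetheless 50.5 CPM in siCtrl cells (range 10.4 to 79.5). It was 21.5 CPM with siSMYD3#1 (1.23 to 32.1) and 10.7 CPM with siSMYD3#2 (4.12 to 16.0), ranges that overlap siCtrl when extractions are pooled. The lowest library of each group was its TRIzol library, at 10.4 CPM in siCtrl, 1.23 with siSMYD3#1 and 4.12 with siSMYD3#2. The NucleoSpin libraries of siCtrl stood at 61.7 and 79.5 CPM, above every library with either siRNA. Within each extraction, Smyd1 was thus lower with both siRNAs than in siCtrl. The study reports lower Smyd1 by qPCR after SMYD3 silencing, an assay outside these data. In CL5 cells Smyd1 was higher at 0 h (5.04, SE 0.443, adjusted p = 0.00219) and 24 h (3.64, SE 0.399, adjusted p = 0.00517).

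Of 11 genes that cap thin filaments or set their length, 4 rose in siCtrl cells over 24 h and 0 fell: nebulin (Neb, 4.43, adjusted p = 4.52e-05), nebulette (Nebl, 2.08, adjusted p = 0.00289), Tmod1, which caps the pointed end (1.75, adjusted p = 1.84e-06), and Lmod1 (1.66, adjusted p = 0.000237). With siSMYD3#1 3 fell at 24 h, Neb (-2.90, adjusted p = 0.00377), the actin-severing cofilin Cfl2 (-1.02, adjusted p = 4.37e-05) and Tmod1 (-0.92, adjusted p = 0.00362), and Tmod3, the tropomodulin of many tissues, rose (0.40, adjusted p = 0.00506). Cfl2 was already lower with siSMYD3#1 at 0 h (-0.79, SE 0.130, adjusted p = 0.00167), as was the capping protein subunit Capza1 (-0.67, SE 0.118, adjusted p = 0.00283). With siSMYD3#2 Tmod1 fell (-0.96, adjusted p = 0.00454) and no other gene of the list was called. Over all genes, 14.6% rose in siCtrl cells over 24 h, and 2.94% (siSMYD3#1) and 2.04% (siSMYD3#2) were lowered at 24 h. At 0 h 1.43% of all genes were called with siSMYD3#1. Tmod1 was at 0.241 to 2.04 CPM in the 6 TRIzol libraries and 15.0 to 57.3 CPM in the 12 NucleoSpin libraries (-5.45, SE 0.167, adjusted p = 1.71e-14). Neither CL5 comparison called a gene of this list. At 24 h Neb stood at 126 and 37.3 CPM in CL5 against 2.22 and 2.15 CPM in vector cells (log2 fold change 5.22, SE 0.718, adjusted p = 0.0114). Tmod1 stood at 11.3 and 8.43 against 1.86 and 1.24 CPM in the same libraries (log2 fold change 2.67, SE 0.469, adjusted p = 0.0274).

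Of 8 other small heat shock proteins and their partners, 7 were tested; Hspb6 fell in siCtrl cells over 24 h (-0.42, adjusted p = 0.00769) and was higher with siSMYD3#1 than with siCtrl at 24 h (0.62, adjusted p = 0.00171). Of 7 Cul3 and other muscle kelch genes, 5 were tested and 3 rose in siCtrl cells: Klhl31 (2.94, adjusted p = 8.35e-05), Klhl30 (1.47, adjusted p = 0.000375) and Klhl33 (1.05, adjusted p = 0.00257). Neither siRNA changed this list at 24 h by the test, whereas Klhl31 was higher in CL5 cells at 0 h (4.73, adjusted p = 0.00171) and at 24 h (3.35, adjusted p = 0.00454). Of 8 Xin and nascent myofibril genes, 7 were tested and 3 rose in siCtrl cells: Csrp3 (3.56, adjusted p = 0.00011), the actin-binding Xirp2 (1.61, adjusted p = 1.74e-05) and the Z-disc protein Ldb3 (1.12, adjusted p = 0.0014). Xirp2 was lower with siSMYD3#1 (-1.16, adjusted p = 0.00193) and siSMYD3#2 (-1.60, adjusted p = 0.000383), and Xirp1 was higher in CL5 cells at 0 h (2.67, adjusted p = 0.00328) and 24 h (2.23, adjusted p = 0.00581). Over all genes, 29.4% were called in siCtrl cells over 24 h and 14.6% were raised.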

How the data were processed

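RNA was extracted with TRIzol or NucleoSpin kits and sequenced as stranded poly-A libraries in paired-end mode. Per the labels and the study's methods, the authors checked reads with FastQC 0.11.5, aligned them to GRCm38 with HISAT2 2.1.0 and counted them with featureCounts (Subread 1.6.3); the deposited files hold raw counts per gene and library, and the strand setting and annotation release of the counting are not given in the sources used here. Of the 55341 genes listed, 54409 were in the GENCODE M21 annotation used for symbols, coordinates and exon lengths (GRCm38). The members and lists were chosen with earlier results of these data known.

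Counts were fitted with edgeR 4.0.16 in R 4.3.3 (filterByExpr, TMM, robust quasi-likelihood test), the 18 siRNA libraries with 6 group means and extraction as a covariate, as the study did, and the 8 vector and CL5 libraries with 4 group means. An adjusted p under 0.01 was the threshold. The filter left 15820 and 17835 genes. SE is the log2 fold change divided by the root of F. Alternatives were DESeq2 1.42.0, other size factors, no filter, no covariate, NucleoSpin libraries only, a replicate block, all 26 libraries in 1 fit and each library left out in turn. The tests were checked on simulated counts. Named genes were the 10 members, Smyd3, up to 3 of the called genes of each partner list by size (every gene where a count was 5 or fewer) and the genes most like each member; Myog, Cebpa and the markers come from the marker list. Intervals and floors cover counting error only.

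The study's library table numbers the replicates; deviations of same-numbered siRNA libraries from their group means correlated at 0.366 to 0.851 in every pair, and number 3 is always the TRIzol library, so pairing goes with extraction. In the vector and CL5 libraries the values ran from -0.097 to 0.483. With 2 libraries in a group, both pairs of a comparison give the same value, so these values cannot show whether those libraries are paired. The study calls its samples biological replicates; where cultures were not separate, p-values measure only the spread between these libraries. No pair of libraries held identical counts.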

Additional observations from a re-analysis of the deposited data

Results flagged for a closer look

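The change of Klhl41 over 24 h differed between cells labelled siSMYD3#1 and siCtrl cells, by the test of the difference itself: -2.91 on the log2 scale (SE 0.455, edgeR quasi-likelihood test, adjusted p = 0.00399). Klhl41 went from 0.710, 1.40 and 0.840 CPM to 3.28, 5.69 and 5.66 CPM with siSMYD3#1, and from 0.847, 1.17 and 1.22 CPM to 21.7, 45.0 and 55.1 CPM with siCtrl. Groups here hold 2 or 3 libraries, too few for a search for single outlying samples.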

How the results depend on the processing

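The direction of every called member value was kept under every alternative run. Without the extraction covariate, the number of members called over 24 h was 5 in siCtrl, 3 in siSMYD3#1 and 4 in siSMYD3#2 cells (8, 6 and 7 with it), 1 for siSMYD3#2 against siCtrl at 24 h (4 with it), 0 for siSMYD3#1 against siSMYD3#2 and 0 for the siSMYD3#1 difference of changes. For siSMYD3#1 against siCtrl at 24 h, 5 were called with no low-count filter and 6 with NucleoSpin libraries only, against 3. For siSMYD3#1 against siSMYD3#2 (1 called), 3 were called at an adjusted p under 0.05, 5 with no filter, 3 with DESeq2, 4 with NucleoSpin libraries only and 0 with all 26 libraries in 1 fit. For the differences of changes, 3 (no filter) and 2 (DESeq2) were called with siSMYD3#1, and 1 each with no filter, DESeq2 and NucleoSpin libraries only with siSMYD3#2. For CL5 against vector at 24 h (4 called), 7 were called at an adjusted p under 0.05, with no filter, with DESeq2 and with all 26 libraries; at 0 h (3 called) the same settings gave 6, 8, 8 and 7. Over 24 h within vector cells 3, 3 and 1 were called with no filter, DESeq2 and all 26 libraries, and within CL5 cells 4, 4 and 3, against 0. In every other count the alternatives stayed within 1.5 times. DESeq2 called 7.2% of all genes it gave an adjusted p for siSMYD3#1 against siSMYD3#2 at 24 h. It called 0.927% for the siSMYD3#1 difference of changes and 5.84% for CL5 against vector at 0 h. For the other settings and for libraries left out, no share of all genes was taken. Those counts therefore do not tell a shift of the members from a shift of all genes. The cause of each shift was not tested.

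With the replicate number as a block, 1 siRNA call changed (Lmod2 over 24 h with siSMYD3#2, adjusted p = 0.0141). In the vector and CL5 libraries, where pairing by number could not be judged, 7 members were called at 24 h.

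Leaving out each library in turn moved the number of members called from 4 to 7 for siSMYD3#2 over 24 h, 2 to 6 for siSMYD3#2 against siCtrl at 24 h, 0 to 2 for siSMYD3#1 against siSMYD3#2, 0 to 1 for each difference of changes with an siRNA, 0 to 7 and 0 to 8 for CL5 against vector at 24 h and 0 h, 0 to 1 for CL5 over 24 h and 3 to 5 for TRIzol against NucleoSpin. The lowest siSMYD3#2 count over 24 h (4) came without its first NucleoSpin library of 0 h, and the highest extraction count (5) without the siSMYD3#2 TRIzol library of 24 h. Uncalled values near 0 changed sign when a library was left out: Cryab over 24 h ranged from -0.0697 to 0.12 with siSMYD3#1 and from -0.0624 to 0.0145 with siSMYD3#2, Unc45a over 24 h with siSMYD3#2 from -0.23 to 0.0366, Unc45a and Nrap for siSMYD3#1 against siCtrl from -0.15 to 0.0007 and from -0.16 to 0.47, Lmod2 for siSMYD3#1 against siSMYD3#2 from -0.32 to 1.29, and Unc45a and Cryab for CL5 against vector at 24 h from -0.0576 to 0.38 and from -0.0046 to 0.67. Depth limits the genes near 0 reads at 0 h.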
